A study of Schizosaccharomyces pombe with 4 samples.

Results

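The malate genes mae1 and mae2 of the fission yeast Schizosaccharomyces pombe were examined for Taz1 and Rif1 signal in chromatin immunoprecipitation with hybridisation to tiling arrays (ChIP-chip). The 2 genes, of 5077 protein-coding genes in the reference annotation, were taken as position windows around them, 4903000 to 4913000 on chromosome I for mae1 and 271000 to 282000 on chromosome III for mae2, in the array's own coordinates. The windows held 70 of 41251 chromosome tiles, 33 at mae1 and 37 at mae2. A tile is the 300-bp interval that 1 probe of 60 bases stands for. Both genes had been picked because they carried Taz1 and Rif1 signal in these same arrays, so their levels describe the choice and no test was applied to them.

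There were 4 arrays, 1 for each of 4 groups. Taz1_wt was wild-type yeast precipitated with an antibody raised against recombinant Taz1. Taz1_L593F was the taz1l593F (mut5) strain precipitated with that antibody. Taz1_GFP was the taz1GFP strain precipitated through GFP, and Rif1_Myc was the Rif1Myc strain precipitated through Myc. All 4 cultures grew logarithmically in rich medium at 30 °C and were fixed in 3% paraformaldehyde, and their DNA was sheared to fragments of 500 to 1000 bp. Precipitated DNA (Cy5) was hybridised together with whole-cell extract DNA (Cy3) of the same strain. An array of a strain without the tag or without Taz1 was not analysed here. With 1 array a group there is no replicate error: every SD below is over tiles of 1 array, and no difference between arrays could be tested.

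Mae1 is the malate and succinate symporter of the plasma membrane, and mae2 encodes the malic enzyme, which turns malate into pyruvate. Together they let fission yeast take up and break down malate. Taz1 binds the double-stranded repeats of telomeres, and Rif1, found at telomeres too, restrains the firing of late replication origins. The outer parts of the chromosomes next to the telomere repeats hold blocks of repeated and decayed genes, some of which derive from genes elsewhere in the genome.

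On assembly ASM294v3, mae1 (SPAPB8E5.03) lies at chrI:4912249-4914182 on the plus strand with its coding sequence at chrI:4912297-4913613. mae2 (SPCC794.12C) lies at chrIII:275261-277262 on the minus strand with its coding sequence at chrIII:275514-277211. Each coding sequence is a single exon. The coding sequences held 4 and 6 tile middles. Neither gene lies at a chromosome end, yet parts of both have near-identical copies there. The annotation names a malic acid transport pseudogene, SPAC212.10, at chrI:5726-6331 and a malic enzyme pseudogene with frameshifts, SPAC212.09C, at chrI:7619-9274. A further malic enzyme pseudogene, SPBCPT2R1.07C, is annotated at chrII:4523274-4524970 and a NAD-dependent malic enzyme, SPAC750.08C, at chrI:5578447-5579133, the last bases of that chromosome.

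The stretch of 120 bases of each coding sequence with the fewest differences from the left end of chromosome I is shown with its copies. It was picked by sequence and not by signal, and the signal described below reached beyond it. All lines run 5′ to 3′ along the malate gene. Capitals mark the bases at which a copy differs from the gene.
mae1, chrI:4912390-4912509, plus strand: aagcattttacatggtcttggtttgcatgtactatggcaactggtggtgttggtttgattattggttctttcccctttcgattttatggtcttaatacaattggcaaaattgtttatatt
copy at the left end of chromosome I, chrI:6119-6238, minus strand: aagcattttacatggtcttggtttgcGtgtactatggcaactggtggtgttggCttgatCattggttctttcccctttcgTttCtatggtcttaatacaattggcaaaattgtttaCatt
copy at the right end of chromosome II, chrII:4526309-4526428, plus strand: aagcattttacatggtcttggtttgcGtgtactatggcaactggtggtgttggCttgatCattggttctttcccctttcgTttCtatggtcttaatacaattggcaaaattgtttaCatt
mae2, chrIII:276097-276216, minus strand: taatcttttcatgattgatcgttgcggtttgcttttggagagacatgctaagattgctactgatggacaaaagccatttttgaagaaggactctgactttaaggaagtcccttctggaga
copy at the left end of chromosome I, chrI:8572-8691, plus strand: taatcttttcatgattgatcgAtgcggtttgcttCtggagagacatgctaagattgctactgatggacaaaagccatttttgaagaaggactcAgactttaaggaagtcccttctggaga
copy at the right end of chromosome II, chrII:4523857-4523976, minus strand: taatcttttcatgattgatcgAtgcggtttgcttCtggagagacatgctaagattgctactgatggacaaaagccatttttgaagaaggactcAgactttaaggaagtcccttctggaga

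The mae1 stretch differed from each copy at 6 bases (95% identity), and the mae2 stretch at 3 bases (97.5% identity). They lie in the tiles at array positions 4908000 and 276000. The longest exact match to the left end of chromosome I ran over 47 bases for mae1 and over 79 bases for mae2, which is longer than a 60-base probe. Of all 60-base stretches of the coding sequence, 33.8% for mae1 and 60.5% for mae2 were at least 90% identical to that end. The mae1 matches came from the 5′ part of the gene. SPCC794.06, an internal gene annotated as a malic acid transporter, had no stretch of 60 bases with more than 76.7% identity to mae1.

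The signal is given as the log2 ratio of precipitated over whole-cell extract DNA, centred on the array median, so that 1 is 2-fold. Over mae1 the signal was a narrow peak at the start of the coding sequence. The tile at 4908000, whose middle lies 213 bases past the coding start, was the highest of the window on all 4 arrays, at 2.44 on Taz1_wt, 3.10 on Taz1_GFP, 0.54 for Taz1_L593F and 1.46 for Rif1_Myc. The tile before it, at 4907700, spans the coding start and stood at 1.61, 1.73, 0.04 and 1.06 in the same order. The tile after it, at 4908300, stood at 1.66, 2.01, 0.35 and 1.15. The next tile downstream, 4908600, was at 0.83, 1.13, 0.19 and 1.005, and 4908900, the last of the coding sequence, at 0.68, 0.41, 0.14 and 0.50. The mae1 signal was thus lower toward the 3′ end of the gene, and the 4 arrays shared the position of the peak.

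Over mae2 the signal on Taz1_wt, Taz1_GFP and Rif1_Myc was a plateau that covered the coding sequence from end to end. The 6 coding tiles lay between 1.33 and 1.73 on Taz1_wt, between 0.86 and 1.28 on Taz1_GFP and between 0.89 and 1.36 on Rif1_Myc. On Taz1_L593F they lay between 0.19 and 0.38 and were no plateau, since tiles outside the coding sequence were higher, such as 275100 at 0.45 and 278100 at 0.43. The first tile past the 3′ end, at 275100, was at 0.43 on Taz1_wt, 0.52 on Taz1_GFP, 0.45 for Taz1_L593F and 0.22 for Rif1_Myc. The first tile upstream of the coding start, at 277200, was at 0.42, −0.06, 0.08 and 0.32. The step at both borders thus took place within 1 tile on Taz1_wt.

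**Figure D1:**
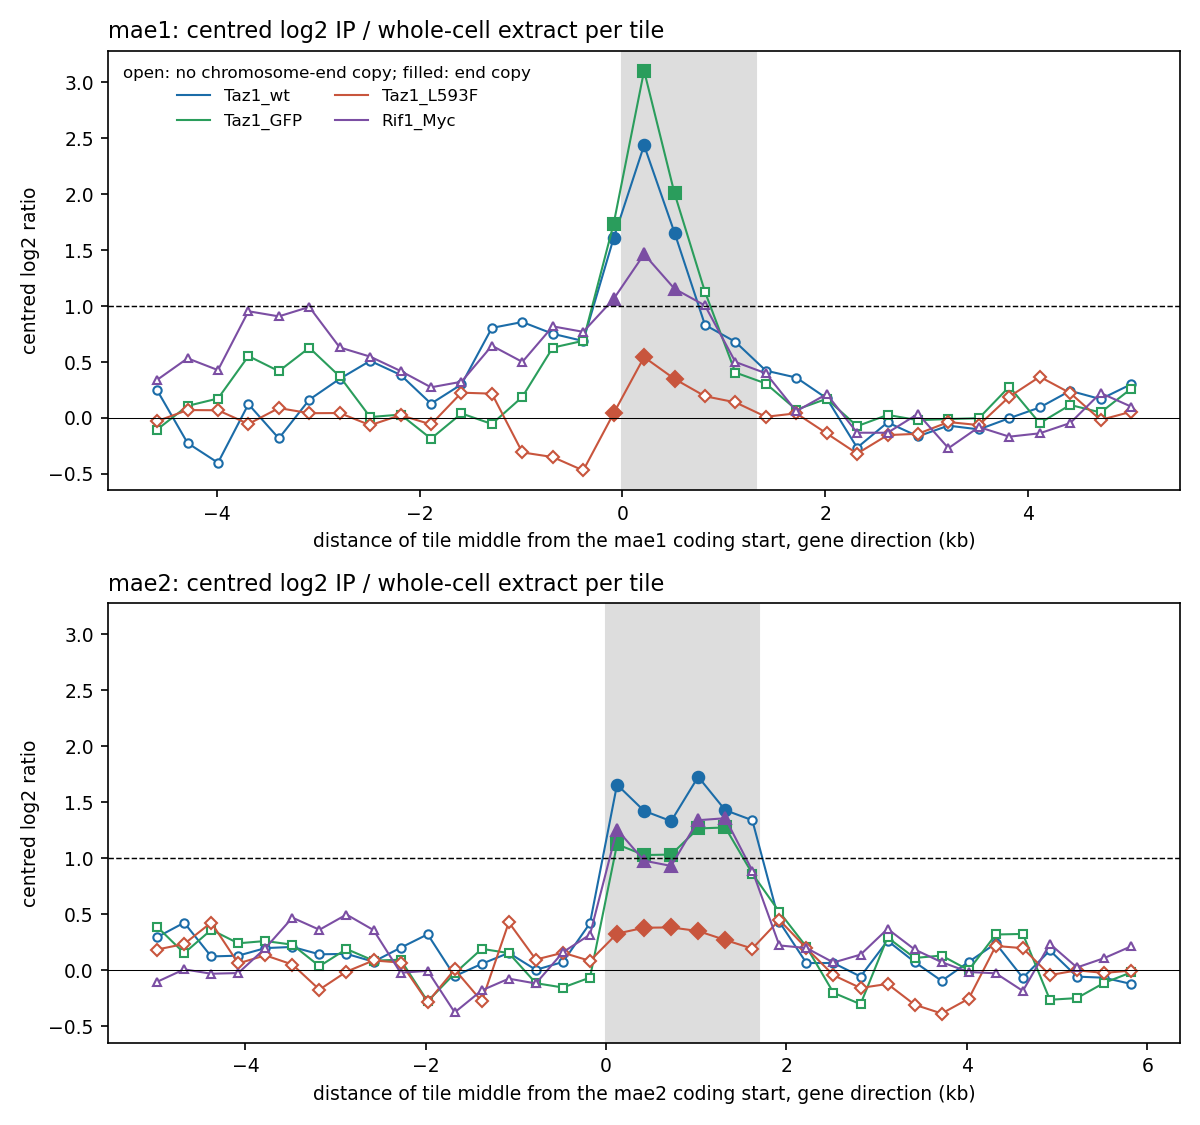
Centred log2 ratio of immunoprecipitated over whole-cell extract DNA (y axis) for each tile of the mae1 (top) and mae2 (bottom) windows, against the distance in kb of the tile middle from the coding start along the gene (x axis). Lines and colours are the 4 arrays, grey marks the coding sequence, the dashed line is 2-fold, and filled symbols are tiles with a near-identical copy in a chromosome end; the highest mae1 tile reached 3.10 on Taz1_GFP, and the mae2 tiles on Taz1_wt lay between 1.33 and 1.73.

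The coding-sequence mean of mae1 was 1.66 ± 1.16 on Taz1_GFP, 1.40 ± 0.81 on Taz1_wt, 1.03 ± 0.40 on Rif1_Myc and 0.31 ± 0.18 on Taz1_L593F (SD over 4 tiles). The first 3 of these overlap in their spread over tiles. For mae2 the mean was 1.49 ± 0.17 on Taz1_wt, 1.13 ± 0.22 on Rif1_Myc, 1.1 ± 0.16 on Taz1_GFP and 0.32 ± 0.07 on Taz1_L593F (SD over 6 tiles). Rif1_Myc and Taz1_GFP overlap, and Taz1_L593F lies apart: its highest coding tile, 0.38, was below the lowest coding tile of each other array. In fold terms, the Taz1_wt means are 2.64-fold for mae1 and 2.80-fold for mae2. The running median of 3 tiles, a smoother that needs 2 neighbouring tiles to be high, peaked at 1.66, 2.01, 0.35 and 1.15 at mae1 and at 1.43, 1.27, 0.38 and 1.34 at mae2 on Taz1_wt, Taz1_GFP, Taz1_L593F and Rif1_Myc. Means near 2-fold depended on the processing. On Rif1_Myc both genes were below 2-fold with loess within each array (0.53 for mae1, 0.50 for mae2), with scaling to a common spread (0.71, 0.78), with 500 bp added on both sides (0.80, 0.83), with a GC fit removed (0.93, 0.99) and with normexp background correction (0.95, 0.98). Moving the tiles by 300 bp also took mae1 to 0.76 (left) and mae2 to 0.95 (right) there. On Taz1_GFP the mae2 mean was below 2-fold with loess (0.79), with 500 bp added (0.77) and with tiles moved left (0.94) or right (0.999), and the mae1 mean with tiles moved left was 0.90 on Taz1_wt and 0.96 on Taz1_GFP.

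At mae1, 3 tiles on Taz1_wt, 4 on Taz1_GFP, 0 for Taz1_L593F and 4 for Rif1_Myc were at least 2-fold. At mae2 the counts were 6, 5, 0 and 3. Of all internal tiles, those outside the outer 50 kb of the chromosomes and outside the centromeres, 0.307% were at least 2-fold on Taz1_wt, 0.978% on Taz1_GFP, 0.00997% for Taz1_L593F and 2.33% for Rif1_Myc. Since the windows were chosen for their signal, nothing is read from these shares. Among 3816 internal genes with at least 3 coding tiles, mae2 ranked 2 and mae1 ranked 3 from the highest mean on Taz1_wt, where 0.131% of genes reached 2-fold. On Rif1_Myc, where 1.55% did, they ranked 37 and 53. On Taz1_GFP, where 0.288% did, they ranked 10 and 4, and on Taz1_L593F, where 0% did, 26 and 30.

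Against Taz1_wt, the Taz1_L593F mean differed by −1.09 ± 0.63 at mae1, with 4 of 4 coding tiles lower, and by −1.17 ± 0.16 at mae2, with 6 of 6 coding tiles lower (log2 difference, SD over tiles). A difference at or below −1 was found for 0.105% of the 3816 internal genes, and nothing is read from it, because both arrays entered the choice of the genes. The differences ran from −1.89 to −0.54 at mae1 and from −1.38 to −0.95 at mae2. Taz1_GFP and Rif1_Myc were set against the same Taz1_wt array. Taz1_GFP differed from it by 0.26 ± 0.39 at mae1, with 1 of 4 tiles lower, and by −0.39 ± 0.14 at mae2, with 6 of 6 tiles lower. Rif1_Myc differed from it by −0.37 ± 0.49 at mae1 and −0.36 ± 0.14 at mae2. The arrays also differed in their general spread: the robust SD over all internal tiles was 0.23 on Taz1_wt, 0.27 on Taz1_GFP, 0.19 for Taz1_L593F and 0.39 for Rif1_Myc. Per the file headers the Rif1_Myc array was read on another scanner than the other 3, so scanner and group cannot be told apart there.

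The high tiles of both windows were almost all tiles with a copy in a chromosome end, counted where at least 200 bases aligned at 85% identity or more. There were 8 such tiles, 3 at mae1 and 5 at mae2. All 8 were at least 2-fold on Taz1_wt and on Taz1_GFP, 6 were on Rif1_Myc, and 0 were on Taz1_L593F. Of the other 62 tiles, 1 was at least 2-fold on each of Taz1_wt, Taz1_GFP and Rif1_Myc, and 0 on Taz1_L593F. These single tiles were 275400 at the 3′ end of mae2 on Taz1_wt, at 1.34, and 4908600 in mae1 on the other 2 arrays, at 1.13 and 1.005. Both adjoin a tile with a copy. The tile 275400 lies just under the bound: 285 of its bases matched a chromosome end at 84.6% identity, so it is no tile free of related end sequence. Over the coding tiles without a copy alone, mae1 (2 tiles) was below 2-fold on each array, at 0.76 on Taz1_wt, 0.77 on Taz1_GFP, 0.17 for Taz1_L593F and 0.75 for Rif1_Myc, and mae2 was left with only that borderline tile, at 1.34, 0.86, 0.19 and 0.89. The median over the 62 tiles was 0.15, 0.11, 0.03 and 0.20 on Taz1_wt, Taz1_GFP, Taz1_L593F and Rif1_Myc. All 8 tiles with an end copy carry an f in their probe names, the meaning of which is not given. So do 14 of the 62 others, 275400 among them, with medians of 0.21, 0.08, 0.04 and 0.54 in the same order. Over all 487 internal tiles with an f the medians were 0.25, 0.09, 0.03 and 0.48.

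The chromosome-end copies had tiles of their own at the left end of chromosome I, and their values lay close to those of mae2. Each of the 5 mae2 tiles with a copy was set against the mean of 2 end tiles, weighted by their overlap with the copy. Neighbouring mae2 tiles shared an end tile, so the end values are smoothed. Over the 5 mae2 tiles, the mean was 1.52 ± 0.17 against 1.65 ± 0.09 at the end on Taz1_wt, and 1.15 ± 0.12 against 1.36 ± 0.06 on Taz1_GFP. It was 0.34 ± 0.05 against 0.50 ± 0.11 on Taz1_L593F and 1.17 ± 0.20 against 1.23 ± 0.06 on Rif1_Myc (SD over 5 mae2 tiles, or over 5 smoothed end means). Over the 5 tiles of SPAC212.09C taken singly, the SDs were 0.14, 0.12, 0.15 and 0.08 on Taz1_wt, Taz1_GFP, Taz1_L593F and Rif1_Myc. No single mae2 tile differed from its weighted end mean by more than 0.313 on any of the 4 arrays. All 5 mae2 tiles were below their end means on Taz1_GFP, with differences from −0.313 to −0.076, and on Taz1_L593F, from −0.263 to −0.012. The differences ran from −0.300 to 0.002 on Taz1_wt and from −0.264 to 0.092 on Rif1_Myc. The order of the arrays was the same in mae2 and in its copy for the highest and the lowest array, Taz1_wt and Taz1_L593F.

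At mae1, where each tile was set against 1 end tile and not a smoothed mean, the match was looser. The mean of its 3 tiles was 1.90 ± 0.47 against 2.35 ± 0.27 on Taz1_wt, 2.28 ± 0.72 against 2.58 ± 0.30 on Taz1_GFP, 0.31 ± 0.25 against 0.64 ± 0.21 on Taz1_L593F and 1.23 ± 0.21 against 1.39 ± 0.07 on Rif1_Myc. Tile by tile, mae1 ran from 1.05 below to 0.22 above its copy on Taz1_wt, and from 1.15 below to 0.82 above it on Taz1_GFP. The tile at 4908000 was above its copy on all 4 arrays, and the tile at 4907700 below it on all 4. The part of the chromosome-end copies in the signal read at mae1 and mae2 was not tested, because the probe sequences are not in the files used here.

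**Figure D2:**
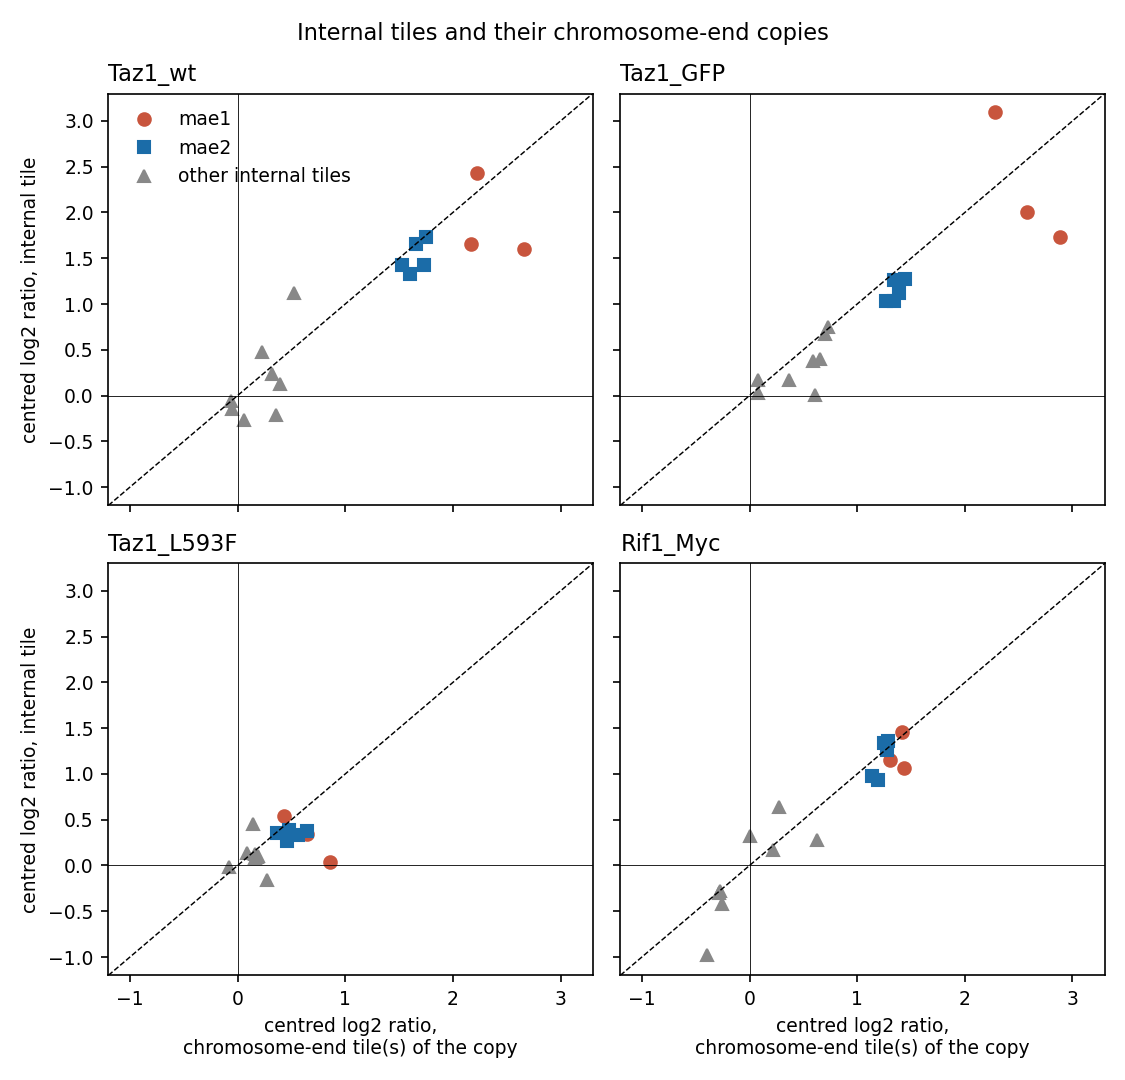
Centred log2 ratio of each internal tile that has a chromosome-end copy (y axis) against the overlap-weighted mean of the end tiles over that copy (x axis), 1 panel per array. The dashed line marks equal values. The 5 mae2 tiles lie within 0.313 of their copies on all 4 arrays, the 3 mae1 tiles scatter by up to 1.15, and the 8 other internal tiles lie between −0.98 and 1.12.

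Besides the 8 tiles of mae1 and mae2, 8 other internal tiles had a copy in a chromosome end. Their mean was 0.16 on Taz1_wt, 0.32 on Taz1_GFP, 0.10 for Taz1_L593F and −0.07 for Rif1_Myc, and the end tiles over their copies were at 0.22, 0.48, 0.14 and −0.01. The highest of these internal tiles was at 1.12 on Taz1_wt, and its copy stood at 0.53. The malate tiles were chosen for high values, so the 2 sets are no test of whether internal tiles follow their end copies. The sets also differed in place. The copies compared lay between chrI:5699 and chrI:9047 for the malate tiles. For the other tiles they lay between chrI:5535281 and chrI:5556762 or at chrII:4493272-4493555, farther from the chromosome tips. Whether this distance bears on the values was not tested. SPAC750.08C, at the right end of chromosome I, was itself at 1.68 ± 0.25, 1.47 ± 0.25, 0.49 ± 0.10 and 1.23 ± 0.24 on Taz1_wt, Taz1_GFP, Taz1_L593F and Rif1_Myc (SD over 3 tiles). SPBCPT2R1.07C had 0 of the chromosome tiles. Probes of the array not named by a chromosome position were not searched for it. SPCC794.06, the internal relative of mae1 without a near-identical end copy, was at −0.04 ± 0.15 on Taz1_wt, 0.42 ± 0.10 on Taz1_GFP, 0.19 ± 0.24 for Taz1_L593F and 0.40 ± 0.10 for Rif1_Myc (SD over 4 tiles), all below the mae1 mean, although the spreads over tiles overlap on Taz1_GFP and Taz1_L593F.

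The tiles just outside the high runs differed between the 2 genes on Taz1_wt. Runs of at least 3 consecutive internal tiles at 2-fold or more, none with a copy anywhere, numbered 9 on Taz1_wt, and the mean of the 2 tiles adjoining a run lay between 0.69 and 0.93 there, with a median of 0.81. For mae1 it was 0.76, within that range, with 2 of the 9 runs lower. For mae2 it was 0.43, below all 9. For the pair of tiles next further out, the 9 runs ranged from 0.39 to 1.01, mae1 stood at 0.72 and mae2 at 0.07. On Taz1_GFP, with 35 runs between 0.38 and 0.98 in the adjoining tiles, mae1 was at 0.55 and mae2 at 0.40, with 4 and 1 of the 35 runs lower. On Rif1_Myc mae1 was at 0.63, with 10 of 70 runs lower, while mae2 had no run of 3 tiles. Runs were chosen by the same 2-fold bound as their signal, so these values describe shape and are no test. None of the 6 tiles from 4906500 to 4907400 and from 4908600 to 4908900 had an end copy within the bound. The tile 4907400 matched an end at 80.8% identity, and 4906500 had a copy elsewhere in the genome at 98.4% identity. On Taz1_wt all 6 lay between 0.68 and 0.86, and on Rif1_Myc between 0.50 and 1.005. On Taz1_GFP they ran from −0.05 at 4906500 and 0.19 at 4906800 to 1.13 at 4908600. Upstream of mae1 on Taz1_L593F, the tiles at 4906800, 4907100 and 4907400 were below 0, at −0.31, −0.35 and −0.47.

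Neither coding sequence held the telomere repeat unit. The words GGTTAC and GGTTACA, the second of which contains the first, were searched on both strands. Both coding sequences had 0 matches to either word. No count was made for the sequence upstream of the mae1 coding start, where the high tile 4907700 partly lies. Of internal regions of the same length as the mae1 coding sequence, 28.5% held GGTTAC and 10.3% held GGTTACA, and of regions of the mae2 length, 34.9% and 13.0%.

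No tile outside those described above reached 2-fold, but the mae1 window was not flat. Besides the tiles just upstream of mae1 on Taz1_wt, the 3 tiles from 4904100 to 4904700, over cox1102, stood between 0.91 and 0.99 on Rif1_Myc. In the mae1 window, the upstream neighbour cox1102, which encodes a tandem protein of mitochondrial ribosome and cytochrome oxidase assembly parts, was at −0.05 ± 0.26 on Taz1_wt, 0.30 ± 0.28 on Taz1_GFP, 0.03 ± 0.06 for Taz1_L593F and 0.69 ± 0.29 for Rif1_Myc (SD over 6 tiles). rpn502, a proteasome subunit gene, was at 0.33 ± 0.14, 0.05 ± 0.20, 0.03 ± 0.12 and 0.44 ± 0.15 (5 tiles). Tiles of both have copies elsewhere on internal chromosome arms at 99% identity or more, and were below 2-fold on all 4 arrays. npc2, a lipid transfer protein gene downstream, was between −0.24 and −0.02 on the 4 arrays, and mfm1, which encodes an M-factor precursor, had 0 coding tiles. In the mae2 window, ugp1 (UTP-glucose-1-phosphate uridylyltransferase) lay between −0.16 and 0.15 and ent3 (an ENTH/VHS domain protein) between −0.24 and 0.15. SPCC553.12C, a transmembrane transporter gene, lay between 0.03 and 0.31. SPCC794.15, of unknown function, and toa2, the small subunit of TFIIA, had 1 tile each, between −0.28 and 0.32 and between −0.10 and 0.39. The middle of the toa2 tile lies between the ends of its coding sequence but outside its coding exons. Only tiles inside the windows were counted, and cox1102, mfm1, ugp1 and toa2 run past a window border. Of the long non-coding RNAs, 1 of 6 in the mae1 window and 2 of 8 in the mae2 window overlap the coding sequences of the malate genes. SPNCRNA.6772 and SPNCRNA.6775 overlap the mae2 gene only outside its coding sequence. SPNCRNA.4210, which overlaps mae1, had 8 tiles, partly outside the coding sequence, with means of 1.13, 1.25, 0.06 and 0.90 on Taz1_wt, Taz1_GFP, Taz1_L593F and Rif1_Myc. SPNCRNA.1035, upstream of mae1, had 1 tile, at 0.86, 0.19, −0.31 and 0.50.

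**Figure D3:**
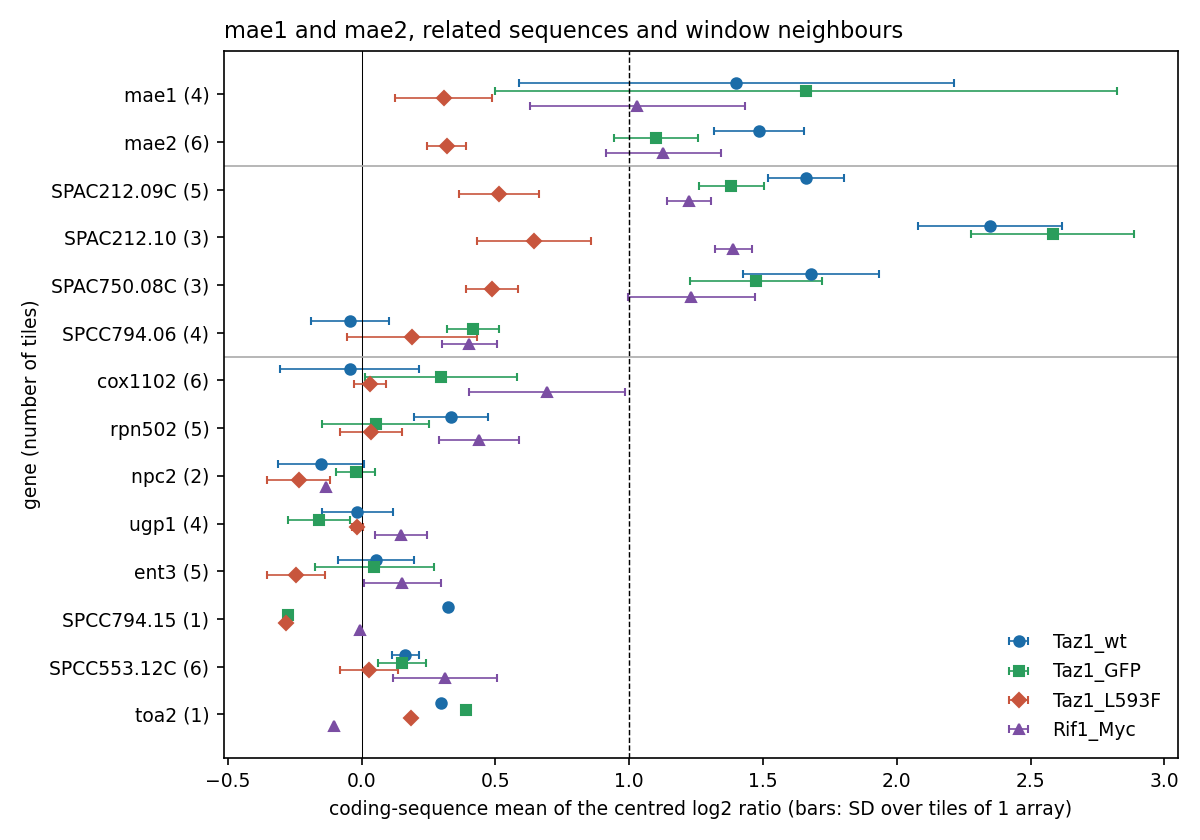
Coding-sequence mean of the centred log2 ratio (x axis) on the 4 arrays for mae1 and mae2 (top), related sequences (middle) and the protein-coding neighbours in the windows (bottom), with the number of tiles in brackets and bars for the SD over tiles of 1 array. mae1, mae2 and the 3 chromosome-end sequences exceed 1 on Taz1_wt, Taz1_GFP and Rif1_Myc, while SPCC794.06 and the neighbours stay below 0.70. For the neighbours only tiles inside the windows count, and the middle of the single toa2 tile lies outside its coding exons.

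Other genes listed for malate metabolism and the citrate cycle were counted in the same way. Of 26 listed names, 24 were in the annotation and 23 had at least 3 coding tiles. Without mae1 and mae2, 0 of 21 had a mean of 2-fold or more on Taz1_wt, Taz1_GFP and Taz1_L593F, beside 0.131%, 0.288% and 0% of all internal genes. On Rif1_Myc 1 of 21 did, beside 1.55% of all internal genes, and 0 of 21 with 500 bp added on both sides. With shares this low over all genes, such counts say nothing particular about the list. The gene was the citrate synthase gene cit1, at 1.02 ± 0.21 (SD over 8 tiles), which stood at 0.09, 0.09 and 0.02 on Taz1_wt, Taz1_GFP and Taz1_L593F. The medians of the 21 genes were 0.07, −0.01, −0.03 and 0.21 on Taz1_wt, Taz1_GFP, Taz1_L593F and Rif1_Myc, beside −0.04, −0.04, −0.02 and 0.04 over all 3816 genes. The succinate dehydrogenase gene sdh2 was the highest of them on Taz1_wt, at 0.41 ± 0.12, and on Taz1_GFP, at 0.40 ± 0.10. The malate dehydrogenase gene mdh1 was the lowest on Taz1_wt, at −0.54 ± 0.19. The isocitrate dehydrogenase gene idp1 was lowest on Taz1_GFP, at −0.31, and highest on Taz1_L593F, at 0.26. The pyruvate carboxylase gene pyr1 was lowest on Taz1_L593F, at −0.23, and ppc1 on Rif1_Myc, at −0.52. The annotation names ppc1 a phosphopantothenate-cysteine ligase, so it was listed by its symbol and is no gene of malate metabolism.

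By the distance between their 4 coding-sequence means, the internal gene nearest to mae1 was mae2, at 0.58 on the log2 scale, and the reverse held too. Both genes were chosen for their signal on these same arrays, so their nearness describes the choice and is no test. Next to mae1 came avl9 at 0.74, the palmitoyltransferase gene erf2 at 1.17, SPAC806.06C at 1.18 and the ubiquitin-conjugating enzyme gene ubc4 at 1.19. Next to mae2 came the retrotransposon Tf2-5 at 0.96, avl9 at 0.96, and the retrotransposons Tf2-3 and Tf2-9 at 0.99 each. avl9, erf2, SPAC806.06C and ubc4 had 0 tiles with a copy, whereas every tile of the 3 Tf2 elements had one. The 3 Tf2 elements differed most from mae2 on Taz1_wt, at 0.65 to 0.74 against 1.49, and on Taz1_GFP, at 0.55 to 0.65 against 1.1. They were nearer to it on Taz1_L593F, at 0.49 to 0.55 against 0.32, and on Rif1_Myc, at 1.27 to 1.35 against 1.13.

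Base composition and DNA input differed at the 2 genes. The GC content was 40.8% over the mae1 tiles and 42.1% over the mae2 tiles, against a mean of 36.2% over internal tiles. The whole-cell extract signal of the coding tiles was 0.70 and 1.03 above the array median (log2, mean of the 4 arrays). Across internal tiles, GC content and the log2 ratio had a correlation of r = −0.15 on Taz1_wt, −0.20 on Taz1_GFP, −0.23 for Taz1_L593F and 0.28 for Rif1_Myc, where the tiles share an array. Removing a linear fit on GC content moved the coding-sequence means by less than the array's robust SD, but on Rif1_Myc it took both below 2-fold, from 1.03 to 0.93 at mae1 and from 1.13 to 0.99 at mae2. In both windows 0 spots were outliers, dim or saturated.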

How the data were processed

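Arrays were custom 2-colour Agilent designs with 41551 probes. Per the file headers, Feature Extraction 11.5.1.1 made the processed intensity of each channel, with background subtraction, spatial detrending and linear dye scaling. The deposited scanner files also hold a log10 ratio of these signals, and the deposited series matrix holds their log2 ratio, uncentred. Both directions are red (precipitated) over green (extract). Median signals were 5232.5 to 12307.5 in red and 11008 to 26414 in green, and 1 array a group limits the precision.

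The log2 ratio was centred on each array's median, with no loess or quantile step. Outlier spots were left out. Probe positions are on a build not given in the sources used here. Tiles were registered on ASM294v3 by the correlation of extract signal with tile GC content in 8 segments. The best shift was within 300 bp of its segment in 120 of 120 windows (median deviation 60 bp, mean r 0.45). Gene names and copies rest on it. Copies were sought with BLAST 2.17.0. Sequences and genes are from RefSeq (ASM294v3).

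The members, lists, windows and motifs were chosen with earlier results of these data known. Genes were named by rule: both members, all genes in the windows, the highest and lowest listed gene of each array, and the 5 nearest internal genes. Chromosome-end relatives and runs were added after their values were seen. No test was made between arrays. The alternatives were normexp (limma 3.58.1, offset 50), the series matrix values, loess, scaling to the mean median absolute deviation, outliers kept, a GC fit, shifted or widened tiles, and other thresholds. Coding means and the copy search were tested on simulated data.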

Additional observations from a re-analysis of the deposited data

How the results depend on the processing

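No paired analysis was possible because each group has 1 array, and no array could be left out. Of 204 alternative values, 153 stayed within the array's robust SD or within 1.5 times the count, 51 moved, and 0 changed sign. The 153 include settings that could not move a value, so the tally overstates how far the results held. The series matrix holds the same ratio, and 0 spots in the windows were outliers. Leaving out probes with an m in their name suffix also changed nothing, because no window tile has it. Normexp gave summits of 2.61 (mae1, Taz1_wt), 2.56 (mae1, Taz1_GFP) and 1.89 (mae2, Taz1_wt), coding means of 1.84 and 2.10 (mae1, Taz1_wt and Taz1_GFP) and 1.93 (mae2, Taz1_wt), 7 mae1 tiles on Taz1_wt, and Taz1_L593F minus Taz1_wt at −1.42 (mae1) and −1.48 (mae2). Loess gave coding means of 1.14 (mae1) and 1.18 (mae2) on Taz1_wt, 0.53 and 0.50 on Rif1_Myc, and 0.79 at mae2 on Taz1_GFP, mae2 summits of 0.88 on Taz1_GFP and 0.62 on Rif1_Myc, 2 mae1 tiles on Rif1_Myc, and 0 mae2 tiles on Taz1_GFP and on Rif1_Myc. Scaling to the mean median absolute deviation gave summits of 1.95 (mae1) and 1.68 (mae2) and coding means of 1.65 and 1.75 on Taz1_wt, a mae2 summit of 0.93 and 1 mae1 and 0 mae2 tiles on Rif1_Myc. Single tiles gave summits of 2.44, 3.10 and 0.54 at mae1 (Taz1_wt, Taz1_GFP, Taz1_L593F) and 1.73 at mae2 on Taz1_wt. The causes of these shifts were not tested. Adding 500 bp on both sides gave mae1 means of 1.08, 1.18 and 0.11 on Taz1_wt, Taz1_GFP and Taz1_L593F, mae2 means of 1.09 and 0.77 on Taz1_wt and Taz1_GFP, and 0 other listed genes on Rif1_Myc; it takes in low flanking tiles. Moving the tiles by 300 bp gave mae1 means of 0.90 (left) and 1.63 (right) on Taz1_wt and 0.96 and 1.99 on Taz1_GFP, so the mae1 mean depends on the registration. A 1.5-fold threshold gave 9, 7 and 11 mae1 tiles on Taz1_wt, Taz1_GFP and Rif1_Myc, 6 mae2 tiles and 3 other listed genes on Rif1_Myc. A 3-fold threshold gave 0 mae1 tiles on Rif1_Myc, and at mae2 2 on Taz1_wt, 0 on Taz1_GFP and 0 on Rif1_Myc. Leaving out tiles with a chromosome-end copy, an alternative added after the data were seen, gave mae1 means of 0.76 on Taz1_wt and 0.77 on Taz1_GFP.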
